A study of Homo sapiens with 5 samples.

Results

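UBB, SQSTM1, VCP, UBQLN1 and UBQLN2 are stress genes of the ubiquitin and protein clearance system. They were taken by name, 5 of the 20033 protein-coding genes of GENCODE release 44, and their occupancy by heat shock factor 1 (HSF1) and MYC was read in OVCAR8 cells. OVCAR8, an established line of human ovarian carcinoma cells, was grown without any treatment. According to the study, the HSF1 and MYC genes are both amplified in this line. Occupancy was measured by CUT&RUN, in which an antibody directs a nuclease to the DNA around a bound protein and the released fragments are sequenced. Each reaction held 500000 cells, fixed for 1 minute in 1% formaldehyde. There were 2 HSF1 libraries, 2 MYC libraries and 1 IgG control library, and the study used them to ask where the binding of HSF1 and MYC coincides. Nothing in the labels says whether the replicates came from separate cultures. No measurement of RNA or protein was used here, so the cell type could not be checked against its markers, and the data give occupancy and not the activity of any gene.

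Misfolded proteins are marked with chains of ubiquitin and then unfolded, carried to the proteasome or packed into autophagosomes. The segregase VCP pulls marked proteins out of complexes and membranes, the ubiquilins carry them to the proteasome, and the receptor SQSTM1 (p62) links them to the autophagy machinery. HSF1 is the transcription factor of the heat shock response. It binds DNA as a trimer at heat shock elements, which are runs of inverted GAA units. MYC binds with its partner MAX at E-boxes, and in cancer cells it is found at a large share of active promoters.

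For each gene, the peaks were taken that lay between 5 kb upstream of the gene and its end in GRCh38, which is called the gene window here. The median window of all genes was 32.5 kb. Every library has its own list of peaks, called against the same IgG library, and the p-value threshold was 1e-04 for HSF1 and 1e-10 for MYC. The HSF1 lists hold 6421 and 4459 peaks on chromosomes 1 to 22, X and Y, and the MYC lists hold 25623 and 13278, from libraries of 8265647 to 10084407 fragments after filtering. At the lowest background of its list, a peak needed 5 fragments over the summit in either HSF1 list, 10 in the list of MYC replicate 1 and 11 in that of MYC replicate 2. A gene without a peak is therefore a gene not called at that depth and threshold. A peak has a pileup, which is the number of fragments over the summit, and a fold enrichment. The fold enrichment is the pileup over a local background after 1 was added to each. That background is an estimate made when peaks were called against the IgG library, derived here from pileup and fold enrichment. It is called the local IgG background here and is not a count of IgG fragments under the summit. Heights were ranked within a list only, because thresholds and scaling differ between lists. With 2 lists per factor, an exact two-sided test of one factor against the other could not give a p below 0.333, and none was run.

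HSF1 was called in both replicates at 1 of the 5 genes, UBQLN1, against 7.81% of all protein-coding genes. MYC was called in both replicates at 3 of the 5, SQSTM1, VCP and UBQLN1, against 45.4% of all genes. At SQSTM1 and VCP, an HSF1 peak was present in 1 of the 2 HSF1 lists, a pattern of MYC in both lists with HSF1 in 1 that 9.77% of all genes had. UBB and UBQLN2 had no peak in any of the 4 lists, as did 34.7% of all genes. By single list, HSF1 replicate 1 had a peak at VCP and UBQLN1 and HSF1 replicate 2 at SQSTM1 and UBQLN1, against 16.5% and 12.3% of all genes. Both MYC lists had peaks at the same 3 genes, against 63.3% of all genes in replicate 1 and 46.2% in replicate 2. HSF1 and MYC were thus both called in both lists at 1 gene, against 6.45% of all genes, and MYC in both lists with HSF1 in neither was found at 0 of the 5, against 29.2%. Counted in either list of a factor, HSF1 and MYC were each called at the same 3 genes, SQSTM1, VCP and UBQLN1, against 21.1% and 64.1% of all genes.

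The calls in both lists came from the same sites and not from distant peaks of one window. Peaks of the replicates shared at least 1 bp at UBQLN1 for HSF1 (6.41% of all genes) and at SQSTM1, VCP and UBQLN1 for MYC (44.6%). Within 1 kb of the canonical start site, the same 1 gene was called in both HSF1 lists (2.58% of all genes) and the same 3 genes in both MYC lists (36.5%). The 5 windows held 19 peaks in all, 6 of HSF1 and 13 of MYC. The plot of summits along the gene windows shows where each of them lay.

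**Figure D1:**
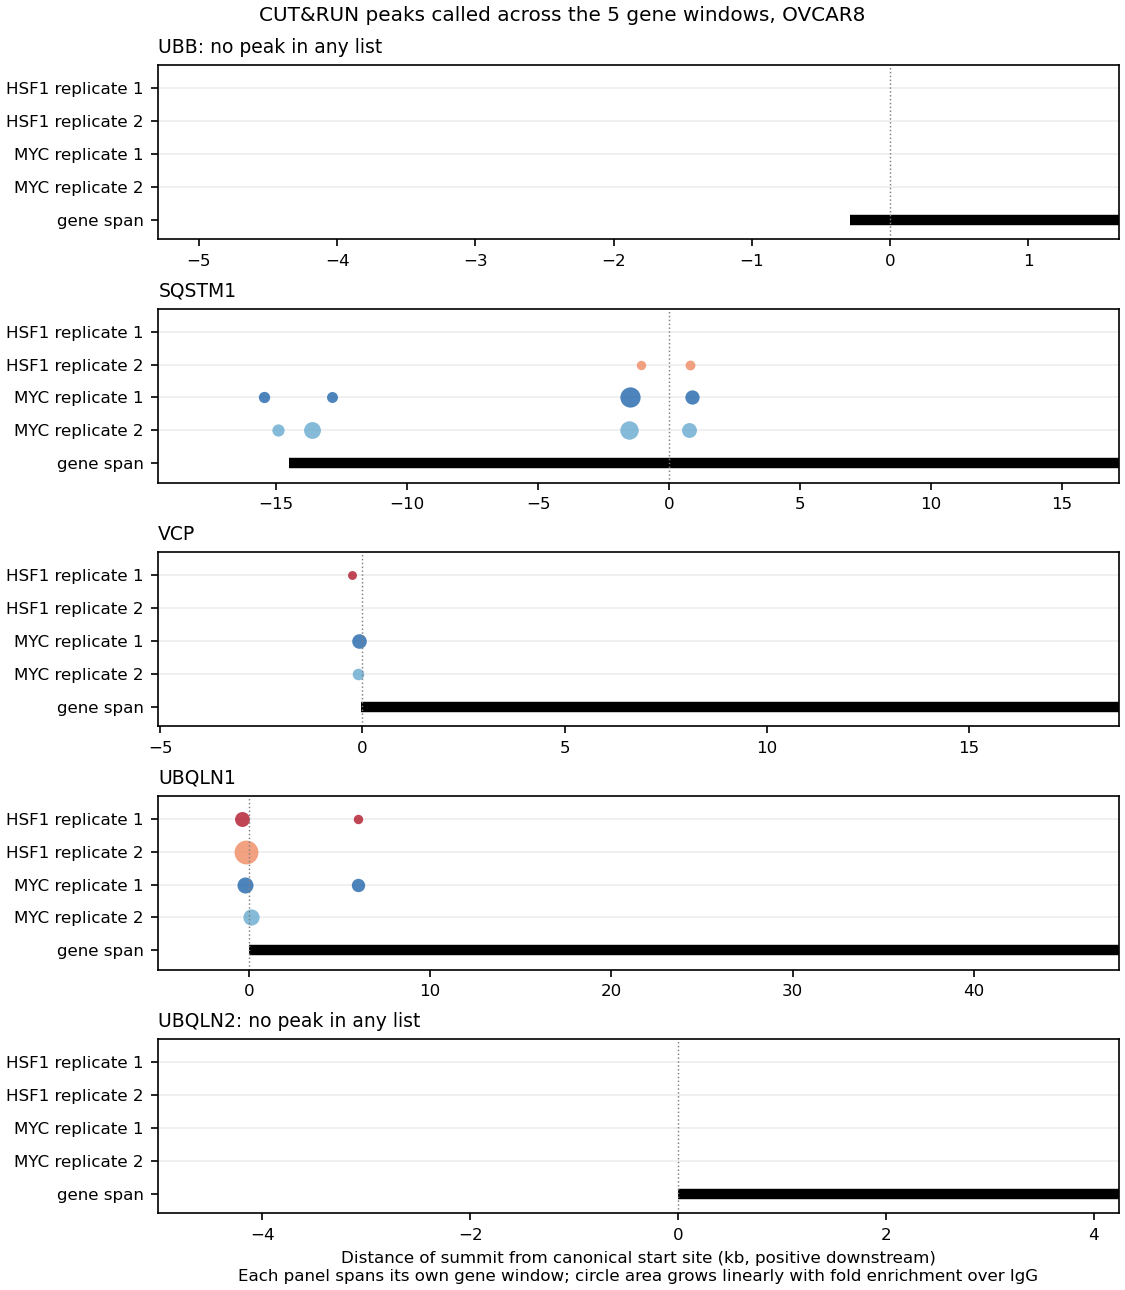
Summits of all peaks in the windows of UBB, SQSTM1, VCP, UBQLN1 and UBQLN2, by list, against the distance from the start site of the canonical transcript in kb (dotted line, positive downstream). Circle area grows linearly with fold enrichment over IgG and the black bar is the gene. UBB and UBQLN2 are empty, VCP and UBQLN1 have peaks at the start site, and SQSTM1 has MYC peaks at its far upstream end and around the canonical start site, with HSF1 peaks in replicate 2 only.

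UBQLN1 encodes ubiquilin 1, which holds ubiquitinated clients through its UBA domain and the proteasome through its ubiquitin-like domain. The gene lies on the minus strand at chr9:83659968-83707958 and has 11 exons in its canonical transcript. It was the only 1 of the 5 genes called in all 4 lists. The 250 bases just before its start site, chr9:83707959-83708208 on the minus strand in GRCh38, are shown because they lie inside the peaks of both factors and hold the summits of HSF1 replicate 2 and MYC replicate 1.
UBQLN1 before the start site: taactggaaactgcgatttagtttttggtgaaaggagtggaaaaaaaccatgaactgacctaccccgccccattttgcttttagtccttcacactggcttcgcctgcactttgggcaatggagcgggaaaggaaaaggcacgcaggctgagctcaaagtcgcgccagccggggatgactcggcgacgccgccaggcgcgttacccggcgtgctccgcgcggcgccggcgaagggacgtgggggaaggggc

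In HSF1 replicate 1 the peak at the UBQLN1 start site spanned chr9:83707736-83708796, with its summit 381 bp upstream of the start site, a pileup of 26 and a fold enrichment of 14.5. In HSF1 replicate 2 it spanned chr9:83707685-83708956, with its summit 142 bp upstream, a pileup of 78 and a fold enrichment of 41.0. The peak was thus present near the top of both lists, at percentile 97.4 and percentile 99.5 of their fold enrichments. The 95th percentile of all fold enrichments was itself 11.0 in replicate 1 and 16.0 in replicate 2. The local IgG background under these summits was 0.867 and 0.926 fragments. The −log10 p-values were 30.1 and 120, so the gene was still called in both HSF1 lists at the threshold of the MYC lists. Across all genes, 2.83% were called in both HSF1 lists at that threshold.

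MYC occupied the same stretch. The peak of MYC replicate 1 spanned chr9:83707709-83708709, with its summit 208 bp upstream of the start site, a pileup of 39 and a fold enrichment of 17.2. The peak of MYC replicate 2 spanned chr9:83707374-83708677, with its summit 109 bp downstream of the start site in exon 1, a pileup of 42 and a fold enrichment of 17.6. The MYC peaks stood at percentile 78.0 and percentile 88.9 of the fold enrichments of their lists. UBQLN1 was the only 1 of the 5 genes where an HSF1 peak overlapped a MYC peak with both factors called in both replicates, which held for 3.65% of all genes. Joined over replicates, the HSF1 peaks covered 1272 bp and the MYC peaks 1336 bp, of which 1025 bp were shared. In the 4 pairs of lists, the summits of HSF1 and MYC lay 173, 490, 66 and 251 bp apart, and every HSF1 summit lay inside the MYC peak. A long noncoding RNA, UBQLN1-AS1, starts on the other strand in the same interval. Its start site was the nearest to the summits of HSF1 replicate 1 (82 bp) and MYC replicate 1 (88 bp), while the UBQLN1 start sites were nearest in the remaining lists, so the peak cannot be assigned to one of the genes from these lists.

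**Figure D2:**
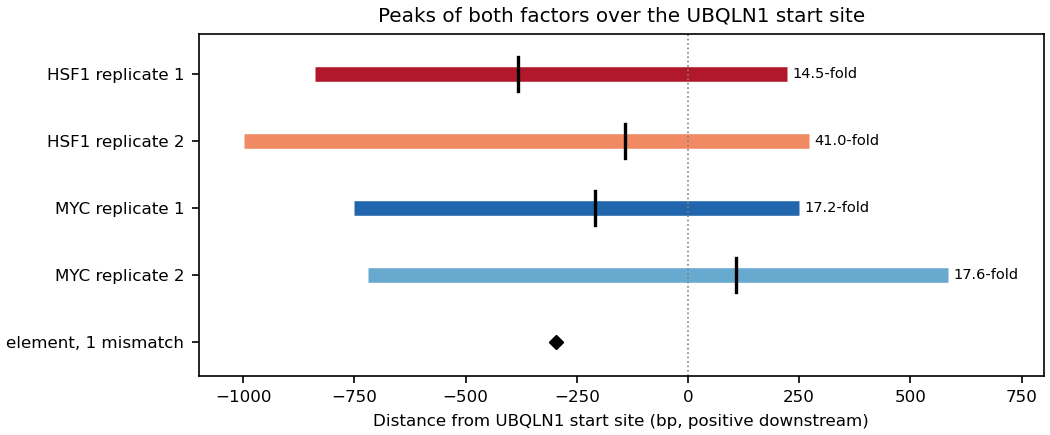
Peaks at the UBQLN1 start site (dotted line) in the 4 lists, against the distance from it in bp (positive downstream). Colored bars are the called peaks, black ticks their summits, the numbers the fold enrichments over IgG, and the diamond a heat shock element with 1 mismatch. All 4 peaks cover the start site and the element, and the fold enrichment was 14.5 and 41.0 for HSF1 and 17.2 and 17.6 for MYC.

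The joined peaks at the UBQLN1 start site held neither a heat shock element of 3 units, searched as GAANNTTCNNGAA or TTCNNGAANNTTC, nor the E-box CACGTG, which reads the same on both strands. When 1 mismatch was allowed among the 9 fixed bases, a search added after the first result was seen, 1 element appeared at chr9:83708248-83708260, centered 296 bp upstream of the start site. It lay inside all 4 peaks, 85 and 154 bp from the HSF1 summits and 88 and 405 bp from the MYC summits. The whole UBQLN1 window of 53.0 kb held 22 matches with at most 1 mismatch, and no other of them lay in a peak. The only exact 3-unit element of the window lay at chr9:83712645-83712657, 4693 bp upstream of the start site, and no peak covered it. Both are shown on the minus strand with their flanks to contrast the element under the peaks with the exact one outside them, with the element in capitals.
UBQLN1 element with 1 mismatch, inside the 4 peaks: tggtccctTTCTAGTAATTTCgctaaccg
UBQLN1 exact element, in no peak: tcctttgtGAAACTTCTTGAAccaccact

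A second site of UBQLN1 lay in intron 1, with summits 6036 bp (HSF1) and 6015 bp (MYC) downstream of the start site, and was called in replicate 1 of both factors only. The HSF1 peak there spanned chr9:83701859-83702247 with a pileup of 6 and a fold enrichment of 4.18, at percentile 23.8 of its list. The MYC peak spanned chr9:83701760-83702227 with a pileup of 17 and a fold enrichment of 11.0, at percentile 41.2. Both were below the middle of their lists, and their summits were 21 bp apart. An E-box at chr9:83701920-83701925 lay 0 bp from the HSF1 summit and 21 bp from the MYC summit, and this was the only E-box within 100 bp of a summit among all peaks of the 5 genes. The 106 bases around both summits, chr9:83701870-83701975 on the minus strand, are shown with the E-box in capitals.
UBQLN1 intron 1: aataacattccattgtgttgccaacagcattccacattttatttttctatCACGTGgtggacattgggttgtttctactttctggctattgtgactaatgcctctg

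UBQLN2, on the X chromosome at chrX:56563627-56567868, encodes ubiquilin 2, a close relative of ubiquilin 1 and a gene in which inherited changes cause amyotrophic lateral sclerosis. It has a single exon and a window of 9.24 kb, shorter than that of most genes, at percentile 11.8 of all windows. It had no peak in any list. The nearest HSF1 peaks lay 1.075 Mb away in both replicates, and the nearest MYC peaks 557.3 kb away in replicate 1 and 1.56 Mb away in replicate 2. The window held no exact heat shock element and no E-box. With 1 mismatch allowed it held 1 element, centered 2727 bp upstream of the start site and in no peak. The ubiquilins therefore differed in the lists, with all 4 calls at UBQLN1 and 0 at UBQLN2. The shorter window of UBQLN2 gives fewer positions at which a peak could be counted. Within 1 kb of the canonical start site, a stretch of equal length for both genes, the calls also differed. There UBQLN1 was called in both lists of each factor and UBQLN2 in no list.

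UBB encodes polyubiquitin B, a chain of head-to-tail ubiquitin units and a classical heat-inducible gene. It lies at chr17:16380798-16382745 on the plus strand, with 2 exons and a window of 6.95 kb, at percentile 5.2 of all windows. It had no peak in any list. The nearest HSF1 peaks lay 143.9 kb away in replicate 1 and 381.5 kb away in replicate 2. The nearest MYC peaks lay 5.80 kb from the start site in replicate 1, past the end of the gene, with a pileup of 15 and a fold enrichment of 5.76, and 27.9 kb away in replicate 2. The window held 0 exact 3-unit elements, and with 1 mismatch allowed it held 2, which overlap each other at chr17:16380796-16380808 and chr17:16380801-16380813, centered 289 and 284 bp upstream of the canonical start site. The first is shown on the plus strand with the element in capitals, because elements of this kind stood close to the start of this gene and no HSF1 peak was called over them.
UBB element with 1 mismatch, in no peak: gctgcaagGAAGTTTCCAGAGctttcgag

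The only E-box of the UBB window lay 2374 bp upstream of the start site, also in no peak.

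VCP encodes the hexameric ATPase also known as p97. It lies on the minus strand at chr9:35053928-35072668, with 17 exons in the canonical transcript and a window of 23.7 kb. MYC was called at its start site in both replicates. The peak of MYC replicate 1 spanned chr9:35071859-35073002, with its summit 71 bp upstream of the start site, a pileup of 31 and a fold enrichment of 13.7. The peak of MYC replicate 2 spanned chr9:35072168-35072781, with its summit 115 bp upstream, a pileup of 19 and a fold enrichment of 7.62. The site was the same in both lists, but its rank by fold enrichment differed, at percentile 61.5 in the first and percentile 15.8 in the second. Its −log10 p-value of 14.8 in replicate 2 was below a stricter threshold of 1e-20, under which VCP was no longer called in both MYC lists.

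HSF1 was called at VCP in replicate 1 only. That peak spanned chr9:35072728-35072916, with its summit 252 bp upstream of the start site, a pileup of 8, a fold enrichment of 3.44 and a −log10 p-value of 4.31. It was among the lowest of its list by fold enrichment, at percentile 6.92, and stood at percentile 23.3 by pileup, over a local IgG background of 1.62 fragments, and it passed the threshold of the HSF1 lists by a small margin. All 189 bp of it lay in the peak of MYC replicate 1, and 54 bp (28.6%) lay in that of MYC replicate 2. The 250 bases at chr9:35072669-35072918 on the minus strand hold all 3 summits and are shown for that reason. They contain neither an exact heat shock element nor an element with 1 mismatch, and no E-box or variant.
VCP before the start site: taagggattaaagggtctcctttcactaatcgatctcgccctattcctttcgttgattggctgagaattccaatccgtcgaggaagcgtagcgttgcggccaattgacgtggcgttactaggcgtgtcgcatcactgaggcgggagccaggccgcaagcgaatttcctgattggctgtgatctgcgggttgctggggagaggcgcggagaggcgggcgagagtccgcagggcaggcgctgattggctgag

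Just outside the VCP window, 7.31 kb upstream of its start site, 3 of the lists had a peak at the start site of FANCG, a Fanconi anemia DNA repair gene that was named after these values were seen. The fold enrichments there were 6.52 in HSF1 replicate 2, 16.7 in MYC replicate 1 and 15.1 in MYC replicate 2, and every summit lay 2 bp from the FANCG start site. HSF1 replicate 2 thus had a peak at the neighboring start site and none in the VCP window.

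SQSTM1 encodes p62, the autophagy receptor that binds ubiquitin chains and LC3 and that also binds KEAP1. It lies on the plus strand at chr5:179806398-179838078. The canonical transcript has 8 exons and starts at chr5:179820905, which is 14507 bp inside the gene as annotated, so the 36.7 kb window holds start sites at both places. It had the most peaks of the 5 genes, 10 of the 19. MYC had 4 peaks in each list, and HSF1 had 2 in replicate 2 and 0 in replicate 1.

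The highest MYC peak of the 5 genes stood at SQSTM1. In MYC replicate 1 it spanned chr5:179818807-179821127, with its summit 1490 bp upstream of the canonical start site, a pileup of 79 and a fold enrichment of 28.8. In MYC replicate 2 it spanned chr5:179818878-179821145, with its summit 1528 bp upstream, a pileup of 73 and a fold enrichment of 23.4. Both stood high in their lists by fold enrichment, at percentile 96.5 and percentile 96.4. The nearest annotated start site was another one of SQSTM1, 448 and 410 bp from these summits. Joined over replicates the peak covered 2339 bp, including the canonical start site. It held 1 E-box, at chr5:179819560-179819565, 147 and 185 bp from the summits, and 1 element of 2 GAA units (GAANNTTC or TTCNNGAA), at chr5:179819366-179819373, 46 and 8 bp from them. The 230 bases at chr5:179819351-179819580 on the plus strand hold both summits and are shown with the 2-unit element and the E-box in capitals.
SQSTM1 highest MYC peak: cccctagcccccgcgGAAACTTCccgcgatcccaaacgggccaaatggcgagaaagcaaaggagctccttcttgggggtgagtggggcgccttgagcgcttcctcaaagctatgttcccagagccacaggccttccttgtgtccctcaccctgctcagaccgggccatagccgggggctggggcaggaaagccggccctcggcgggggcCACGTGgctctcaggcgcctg

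A second MYC peak lay in intron 1. Its summits were 871 bp downstream of the start site in replicate 1 and 763 bp in replicate 2, with fold enrichments of 13.0 and 14.4 (percentile 57.2 and percentile 78.1). Both HSF1 peaks of replicate 2 lay wholly inside MYC peaks of both lists. The first, chr5:179819817-179820037, had its summit 1084 bp upstream of the start site, a pileup of 7 and a fold enrichment of 4.13, at percentile 18.0 of its list, and lay 406 and 444 bp from the MYC summits. The second, chr5:179821578-179821808, had its summit in intron 1, 806 bp downstream, a pileup of 7 and a fold enrichment of 4.83, at percentile 40.6. This intron 1 summit lay 65 and 43 bp from those of MYC. The −log10 p-values of these HSF1 peaks were 5.19 and 6.32, and neither passed the threshold of the MYC lists. The intron 1 site held a 2-unit element 37 bp from the HSF1 summit, shown in capitals in the 68 bases at chr5:179821715-179821782 on the plus strand, since it was the only match to the 2-unit element within 100 bp of any HSF1 summit of the 5 genes.
SQSTM1 intron 1: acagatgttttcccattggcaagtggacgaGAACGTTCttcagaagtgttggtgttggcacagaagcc

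The remaining MYC peaks of the SQSTM1 window lay at its far upstream end. One pair overlapped near the first annotated start of the gene, with fold enrichments of 6.57 in replicate 1 and 19.1 in replicate 2, at percentile 2.99 and percentile 91.5. The local IgG background under these summits was 3.11 and 0.777 fragments. The summits lay 12877 bp (replicate 1) and 13648 bp (replicate 2) upstream of the canonical start site. Rank and background were therefore read at different positions of the overlapping peaks. The other 2 peaks, with fold enrichments of 7.14 and 8.80, did not overlap each other. Their nearest start site, 43 and 344 bp away, was that of MGAT4B, a neighboring gene for an N-glycan branching enzyme.

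Across the 5 genes, the HSF1 peaks other than that at the UBQLN1 start site were low. By fold enrichment, the median percentile of the members' peaks was 23.8 in HSF1 replicate 1 and 40.6 in replicate 2, over 3 peaks each, and 57.2 in MYC replicate 1 and 83.5 in replicate 2, over 7 and 6 peaks. Ranked by pileup, the HSF1 medians stood at percentile 23.3 and percentile 18.4 and the MYC medians at percentile 52.1 and percentile 62.1. The HSF1 median was below and the MYC median above the middle of the list in both replicates by either measure, while the order of the HSF1 replicates turned with the measure. These percentiles rest on few peaks of 3 genes and are a description only.

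**Figure D3:**
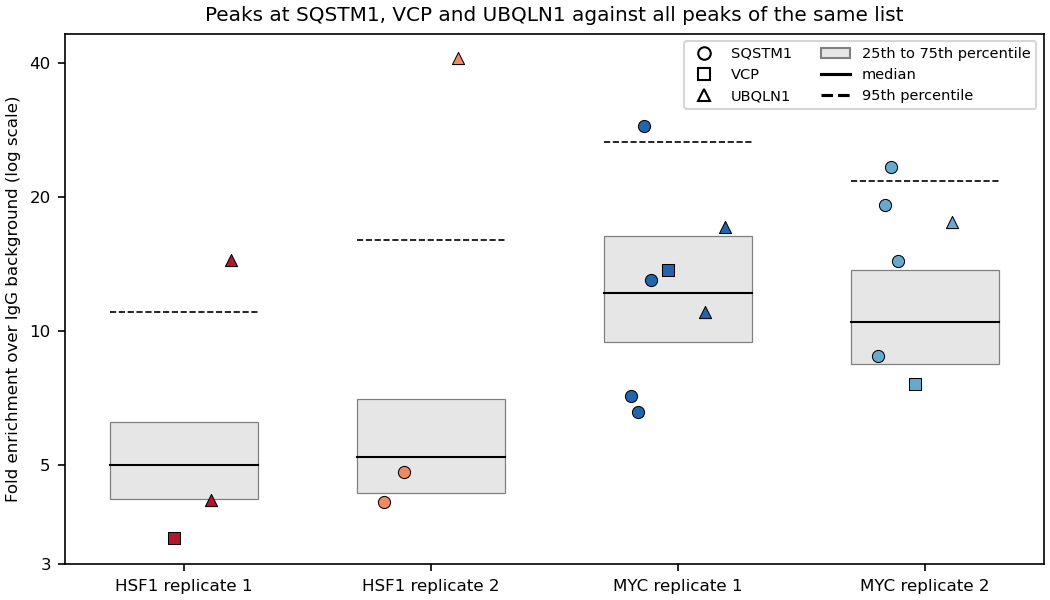
Fold enrichment over the IgG background (log scale) of every peak in the windows of SQSTM1, VCP and UBQLN1, by list. Grey boxes run from the 25th to the 75th percentile of all peaks of that list, with the median as a solid and the 95th percentile as a dashed line. The UBQLN1 peaks of HSF1 (14.5 and 41.0) and the highest SQSTM1 peaks of MYC (28.8 and 23.4) lie above the 95th percentile, and the lowest HSF1 peak is that of VCP (3.44).

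Of the 6 HSF1 peaks of these genes, 0 held an exact 3-unit heat shock element within 100 bp of the summit, against 6.51% of all peaks of HSF1 replicate 1 and 5.97% of replicate 2. With 2 units 1 of 6 did, against 23.9% and 23.6% of all peaks, and with 1 mismatch 1 of 6 did, against 17.4% and 17.2%. Of the 13 MYC peaks, 1 held an E-box in that distance, against 6.74% and 6.82% of all peaks of the lists. With the variants CACGCG and CATGTG on either strand this rose to 4 of 13, against 24.7% and 23.2%. A site called in both lists of a factor was counted as a separate peak in each. The counts are too small to be set apart from the shares of the whole lists. The 8 RefSeq promoters of the 5 genes, each 300 bases long in GRCh38.p14, held 0 exact 3-unit elements and 0 E-boxes, while 0.49% and 7.26% of the 35116 RefSeq promoters held one. This says only that those letters are not in these windows.

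The same reading was made for 55 other genes of the ubiquitin and clearance system. HSF1 was called in both replicates at 6 of them (10.9%, against 7.81% of all genes) and MYC at 38 (69.1%, against 45.4%). Overlapping peaks of both factors in both replicates were present at 3 (5.45%, against 3.65%), and no list had a peak at 5 (9.09%, against 34.7%). Both ubiquitin coding genes of this list were called in both MYC lists, and so were 13 of the 18 cofactors and partners of VCP, 5 of 6 deubiquitinases, 6 of 10 ubiquitin activating enzymes and ligases, 4 of 5 ubiquilins and other shuttles, 6 of 12 autophagy receptors and ubiquitin-like proteins, and both KEAP1 and NFE2L2. HSF1 was called in both lists at 0 of these ubiquitin coding genes, 2 activating enzymes and ligases, 1 deubiquitinase, 1 VCP cofactor, 2 autophagy genes and 0 of the shuttles.

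The HSF1 peaks at these 6 genes differed widely in height. UBE2D3, a ubiquitin-conjugating enzyme, had fold enrichments of 17.5 and 36.1, with summits 370 and 159 bp upstream of its start site. FAF2, which recruits VCP to the endoplasmic reticulum, had 8.18 and 7.64 at a site 26281 and 26452 bp downstream of its canonical start site. WDFY3, an autophagy scaffold, had 6.87 and 5.86, MAP1LC3B, the LC3 protein to which SQSTM1 binds, had 7.64 and 4.19, and SYVN1, the ligase of endoplasmic reticulum degradation, had 5.64 and 4.16. USP5, which takes apart free ubiquitin chains, had 3.34 and 4.57, but its peaks of the 2 replicates did not overlap. The overlap with MYC held for UBE2D3, SYVN1 and FAF2. At FAF2 each HSF1 list had 2 peaks and each MYC list had 1. Those MYC summits lay 193 and 394 bp upstream of the canonical start site, far from the higher HSF1 site given above.

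The highest MYC peaks of the wider list stood at deubiquitinases. USP14, which trims chains at the proteasome, had fold enrichments of 43.7 and 23.1, USP5 had 38.4 and 21.4, and ATXN3 had 39.8 and 18.0. DERL2, a membrane component of endoplasmic reticulum degradation, had 27.6 and 19.1, and KEAP1, the adaptor that binds SQSTM1, had 19.3 and 22.5. The SQSTM1 value was between those of DERL2 and USP5 in replicate 1 (28.8) and above those of all 5 genes in replicate 2 (23.4). Among the relatives of UBQLN1 and UBQLN2, which were named after the values were seen, UBQLN4 had MYC peaks of 20.2 and 17.7 and no HSF1 peak, while UBQLNL had no peak in any list. Of these 4 genes, UBQLN1 was the only one with an HSF1 peak in any list.

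**Figure D4:**
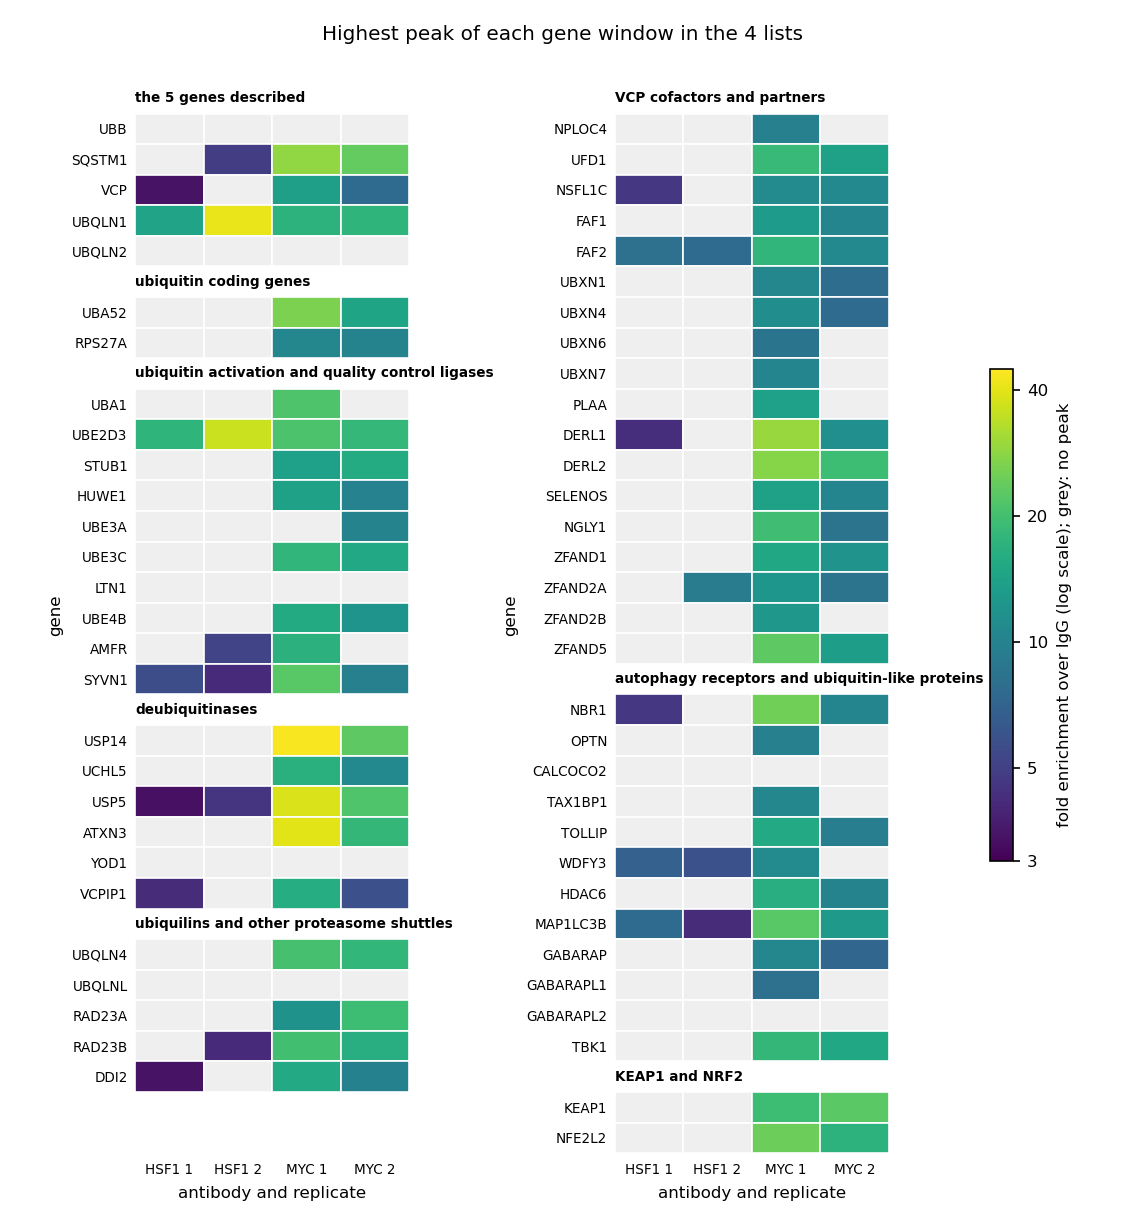
Fold enrichment over IgG (color, log scale) of the highest peak in the window of each gene in the lists of HSF1 replicates 1 and 2 and MYC replicates 1 and 2, for the 5 genes described and 55 other genes of the system by role. Grey marks a gene with no peak in that list. Most rows are colored in the MYC columns, 38 of the 55 in both, and few in the HSF1 columns, 6 of the 55 in both.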

How the data were processed

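Per the methods and processing notes, reads were trimmed, aligned with Bowtie2 to GRCh38 and passed by the authors to MACS2, which called peaks per library and not on pooled replicates. Per the file headers the version was 2.2.9.1 and all lists used the same IgG library, which the headers name as replicate 2 and the labels list without a number. No list of IgG peaks was used here. For each peak the authors deposited a pileup (signal), a −log10 p-value and a fold enrichment, which is a ratio. The q-value column was not used, since the headers say that it was not calculated.

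Gene windows came from GENCODE 44 and sequences from GRCh38. Peak names lack the chr prefix, and 0 peaks ended past the end of a chromosome. The local background was derived from pileup and fold, and the p-value recomputed from it lay within 1% of the deposited one for at least 99.96% of peaks of each list. A gene was called if at least 1 peak shared 1 bp with its window, and peaks overlapped from 1 bp. Motifs were searched 100 bp either side of summits on both strands. The steps were tested on simulated data. Python 3.11.15, pandas 2.3.3, numpy 2.4.6, scipy 1.17.1, pysam 0.24.0 and matplotlib 3.10.9 were used.

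The members and lists were chosen with earlier results of these data known. Besides the 5 genes, the text names pathway genes with HSF1 in both replicates, the 5 with the highest mean MYC fold and neighbors nearest to a peak. Some genes of the wider list are not reported here and are left out of its counts. Another 15 settings of thresholds, windows, replicates, overlap and motifs were tried, and 2 more were added after the data were seen.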

Additional observations from a re-analysis of the deposited data

How the results depend on the processing

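No paired analysis was possible because the results come from counts of called genes and not from a test. The count of the 5 genes with HSF1 was 1 in both lists, 3 in either list (SQSTM1, VCP and UBQLN1) and 2 to 2 when 1 HSF1 replicate was left out, with UBQLN1 in each case, SQSTM1 without replicate 1 and VCP without replicate 2. Overlap with MYC moved in the same way, from 1 to 3 with either list and to 2 to 2 without an HSF1 replicate, and was 1 to 1 without a MYC replicate. For overlap, the share of all genes was taken at the main setting only (3.65%). The overlap counts at the other settings therefore have no share to be read against. The MYC count was 3 to 3 without a MYC replicate and 2 at 1e-20, where VCP was lost and the share of all genes was 32.9%. For the 55 other genes the HSF1 count of 6 became 2 at 1e-10 and 14 in either list. With 1 replicate left out it was 9 to 11. The shares of all genes at these settings were 2.83%, 21.1% and 12.3% to 16.5%. Their MYC count of 38 was 29 at 1e-20, 33 in the gene body alone and 50 in either list. It was 39 to 49 with 1 replicate left out. The matching shares of all genes were 32.9%, 39.6%, 64.1% and 46.2% to 63.3%. The same shares apply to the HSF1 and MYC counts of the 5 genes. Of the HSF1 peaks, 0 of 6 held an exact element, 1 with 2 units and 1 with 1 mismatch allowed. Of the MYC peaks, 1 of 13 held an E-box, 3 in the whole peak, 4 with variants and 0 of 8 at 1e-20. Shares over all peaks were taken only within 100 bp of the summits of the full lists. The whole-peak and 1e-20 counts therefore have no share to be read against. By pileup the mean of the median percentiles was 20.9 against 32.2 by fold for HSF1, and 57.1 against 70.3 for MYC. The cause of these changes was not tested. Fragment depth and the thresholds limit what a missing peak means.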
